A study of Mus musculus with 6 samples.

Results

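The secretory cells of the mammary gland draw phosphate, glucose, amino acids, zinc, chloride and calcium from the blood and pass them, or what is made from them, into milk. The genes described here encode 10 proteins that carry these solutes: Slc34a2, Slc2a1, Slc7a5, Slc3a2, Slc1a5, Slc30a2, Slc30a4, Slc12a2, Atp2b2 and Atp2c1. They were chosen by name, as every probe set annotated to exactly 1 of these symbols, which gave 21 of the 45101 probe sets on the array and 10 of its 18193 genes. A single probe set stood for 5 of the 10 genes. Gene expression was measured in the inguinal mammary glands of 3 Rac1-/- and 3 WT mice at involution day 2, the second day after the pups had been removed, on Affymetrix mouse GeneChip arrays with 1 array per mouse. Rac1-/- mice were Rac1fx/fxYFP;WAPiCreTg/•, in which the whey acidic protein promoter drives Cre in luminal epithelial cells from mid-pregnancy, so that loss of the small GTPase Rac1 is directed to those cells and not to stromal, myoepithelial or immune cells. WT mice were Rac1fx/fxYFP without Cre, so the floxed Rac1 alleles and the Cre-activated YFP reporter were shared by both groups, and Cre itself was present in Rac1-/- mice alone. The females had been mated at 8 to 12 weeks of age, had nursed litters of 6 to 8 pups for 7 to 10 days, and were age matched between the groups.

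Transport into milk works in steps. Carriers on the basolateral membrane take up glucose and amino acids. Transporters in the Golgi and in secretory vesicles load zinc and calcium beside casein. Carriers on the apical membrane move ions directly to or from the lumen. Expression of many of these genes rises with lactation and declines once suckling stops. At involution day 2 the gland has only recently left lactation and still holds milk.

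Values are log2 intensities after quantile normalization unless stated otherwise, and a difference is Rac1-/- minus WT on this log2 scale. Each gene is represented by its probe set with the highest mean. The arrays differed in their spread. The interquartile range of the log2 intensities before normalization was 1.23 to 1.98 on the Rac1-/- arrays and 1.42 to 2.85 on the WT arrays, and Nas497 (Rac1-/-) and Nas484 (WT) had the narrowest range of their groups. Actin control probes near the 3' end minus those near the 5' end, a sign of RNA quality, gave log2 values of -1.24 to -0.30 on the Rac1-/- arrays and -0.17 to 0.05 on the WT arrays, with no overlap. The same difference for the Gapdh controls overlapped, at -0.06 to 0.18 on the Rac1-/- arrays and -0.04 to 0.16 on the WT arrays. The part of the actin difference in the results below was not tested beyond the estimates with it as a covariate. Because it did not overlap between the groups, those fits separate it poorly from genotype. Rac1 had 9.01 to 9.84 in Rac1-/- glands and 8.97 to 9.50 in WT glands on its brightest probe set. The log2 fold change there was 0.19 (SE 0.47). Its next brightest probe set had 8.14 to 8.77 in Rac1-/- and 8.74 to 9.89 in WT glands, at -0.80 (SE 0.51). The dimmest had 0 to 3.41 in Rac1-/- and 2.24 to 4.95 in WT glands, at -1.38 (SE 1.05). The groups overlapped on each of these probe sets. Whether these lie in the deleted part of the gene is not given in the sources used here, and whole glands hold cells with intact Rac1, so this does not check the labels. In limma 0 of 45037 probe sets passed an adjusted p under 0.05 (0%, smallest adjusted p = 0.948), while 845 had a higher and 979 a lower mean in Rac1-/- mice with an unadjusted p under 0.05. None of the 21 transporter probe sets passed, and the statements below are about values, overlap of the groups and intervals. The adjusted p of each gene named below lay between 0.948 and 0.999.

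Among the 10 transporters, Slc34a2 and Slc30a2 were lower in every Rac1-/- mouse than in every WT mouse, and 0 were higher in every Rac1-/- mouse. Of all 18193 genes, 4.21% lay wholly below and 5.41% wholly above WT. The same pair had an unadjusted p under 0.05 in limma, where 1.52% of all genes had a lower and 1.88% a higher mean. The estimate was below 0 for 8 of the 10 genes, against 46.1% of all genes. Their median log2 fold change was -0.51, against 0.06 for all genes. Over the 21 probe sets the median was -0.71, with 17 below 0. Of these probe sets 3 lay wholly below WT, against 4.86% of all probe sets, and 0 wholly above, against 4.59%. At an unadjusted p under 0.05 there were 2 lower, against 2.17% of all probe sets. In whole glands, fewer secretory cells and less RNA per cell cannot be told apart for any of these genes.

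**Figure D1:**
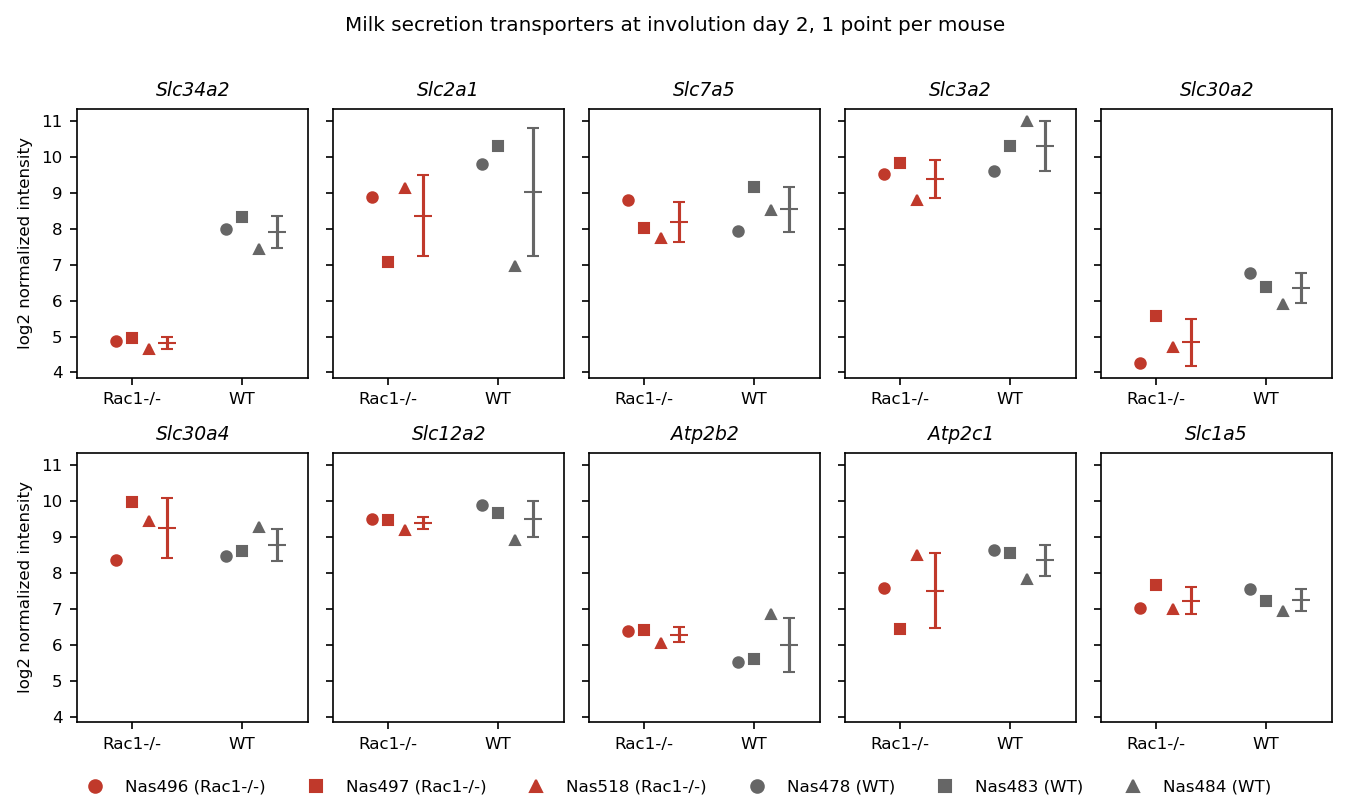
Log2 normalized intensity of the 10 transporter genes at involution day 2, 1 panel per gene on a shared axis, with Rac1-/- mice in red and WT mice in grey. Each point is 1 mouse, and the dash with its bar is the mean ± SD of 3 mice. The groups are separate for Slc34a2, with Rac1-/- mice at 4.64 to 4.97 and WT mice at 7.44 to 8.32, and for Slc30a2, and they overlap for the other 8 genes.

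Slc34a2 encodes the sodium-phosphate cotransporter NaPi-IIb, an apical carrier of the alveolar cell. It had log2 intensities of 4.87, 4.97 and 4.64 in the Rac1-/- mice Nas496, Nas497 and Nas518, against 8.0, 8.32 and 7.44 in the WT mice Nas478, Nas483 and Nas484. The deposited linear intensities were 24.7, 51.1 and 32.8 in the Rac1-/- glands, against 313, 390 and 162 in the WT glands. Those of the Rac1-/- glands lay below the median intensities of the same arrays, 56.0, 88.0 and 71.7. The size of the fall thus rests on dim values in that group, from a single probe set. The Rac1-/- mice lay close together and the lowest WT mouse was well above all of them. Its log2 fold change was -3.09 (SE 0.46, 95% interval -4.16 to -2.02, limma adjusted p = 0.948), which is 8.52-fold lower on the linear scale. A lower estimate was found for 0.0275% of the 18193 genes. By unadjusted p it stood at rank 6 of 45037 probe sets. The exact two-sided permutation test gave p = 0.10, the smallest that 3 mice against 3 allow. Leaving out any 1 mouse left the estimate between -3.33 and -2.89. It was -3.44 with arrays scaled to a common median, -2.97 with the deposited scaling alone, -3.40 without Nas484 and Nas497, -2.84 with the interquartile range of each array in the model and -3.14 with the actin difference in it.

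The RefSeq promoter table (GRCm38.p6) held 7 of the 10 genes with 10 start sites between them. The sequence before the start of Slc34a2 is shown because it had the largest estimate of the 10, and it covers chr5:53049103-53049352 on the plus strand, with 250 bases up to the start site. Capitals mark matches to TATANA, the core of a TATA box, read on both strands and overlapping one another.
Slc34a2: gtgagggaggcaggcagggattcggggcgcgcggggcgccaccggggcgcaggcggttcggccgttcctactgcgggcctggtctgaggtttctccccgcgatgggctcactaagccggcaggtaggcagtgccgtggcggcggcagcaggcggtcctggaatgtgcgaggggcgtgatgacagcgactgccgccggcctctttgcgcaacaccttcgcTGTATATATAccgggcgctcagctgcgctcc
There were 3 overlapping matches, which began 31, 29 and 27 bases before the start. Of the 10 promoters of these transporters 2 held TATANA, against 22.6% of all 32851 promoters of this length. The palindromic Stat motif TTCNNNGAA was in 0 of the 10, against 7.02% of all promoters, which says only that these letters are not in these windows.

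Among other phosphate carriers, none was lower in every Rac1-/- mouse. The list held 5 genes, the type III carriers Slc20a1 and Slc20a2, the renal carriers Slc34a1 and Slc34a3, and the exporter Xpr1. None passed limma's test in either direction, and 4 of the 5 estimates were above 0 with a median log2 fold change of 0.36, which was -0.37 with a common median. Slc34a3 had 6.50, 6.0 and 5.82 in Rac1-/- glands, against 4.82, 4.32 and 5.95 in WT glands. Its log2 fold change was 1.08 (SE 0.56) on a dim probe set, with the groups overlapping at Nas484. That of Slc34a1 was also 1.08 (SE 0.77) on a dim probe set.

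Patterns over the 6 arrays were compared by the root mean square difference of values centred on each gene's own mean. The candidates were 9096 genes with a mean above the median of all genes. The most alike patterns to Slc34a2 were those of Ucp3 (0.46), Wap (0.46) and Cel (0.53). Wap is a milk whey protein and the gene whose promoter drives Cre here, Cel is a lipase found in milk, and Ucp3 is a mitochondrial carrier best known from muscle. Wap had 12.70, 12.30 and 11.84 in Rac1-/- glands and 15.06, 14.82 and 15.27 in WT glands, a log2 fold change of -2.77.

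Zinc reaches milk through vesicle transporters of the ZnT family, and the estimates of its 2 genes here lay on opposite sides of 0. Slc30a2 encodes ZnT2, a zinc exporter of secretory vesicles whose human mutations give zinc-deficient milk. It had 4.27, 5.56 and 4.71 in Rac1-/- glands, against 6.77, 6.38 and 5.92 in WT glands. Every Rac1-/- mouse was lower, though Nas497 and Nas484 were only a short way apart. This gave a log2 fold change of -1.51 (SE 0.53, 95% interval -2.73 to -0.29, limma adjusted p = 0.948), with an unadjusted p of 0.021 and an exact permutation p of 0.10. The probe set is dim, at the 40.8th percentile of mean brightness. On the deposited scaling the values were 15.8, 71.1 and 34.1 in Rac1-/- glands and 99.6, 67.8 and 69.8 in WT glands. There the groups overlapped, because Nas497 exceeded both Nas483 and Nas484, and the log2 fold change was -1.21. Leaving out 1 mouse gave -1.87 to -1.22, and the estimate without Nas484 and Nas497 was -2.09. The unadjusted p was above 0.05 without Nas496, Nas518, Nas478 or Nas483, on the deposited scaling and with the interquartile range of each array as a model term.

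Slc30a4 encodes ZnT4, the vesicle zinc exporter that is mutated in the lethal milk mouse. Its values were 8.35, 9.97 and 9.45 in Rac1-/- glands, against 8.47, 8.60 and 9.29 in WT glands. A Rac1-/- mouse was the lowest of the 6 and another the highest. Its mean difference was 0.47 (SE 0.57, 95% interval -0.83 to 1.78) on the log2 scale, and its sign turned with the scaling, to -0.59 with a common median and -0.12 with the deposited scaling alone. Of 21 other zinc genes, 0 passed limma's test and 17 were below 0, with a median of -0.27. The importer Slc39a4 was the only one with an unadjusted p under 0.05. It had 6.51, 5.20 and 5.90 in Rac1-/- glands, all above the 5.06, 4.71 and 3.75 of WT glands. Its log2 fold change was 1.37 (SE 0.57), on a dim probe set at the 27.6th percentile of mean brightness. Slc39a7, a zinc exporter from the endoplasmic reticulum, had -1.07 (SE 0.55) with overlapping groups, while the importers Slc39a14, at -0.88 (SE 0.49), and Slc39a9, at -0.44 (SE 0.43), lay wholly below WT. The genes most alike to Slc30a2 in pattern were Zdhhc1 (root mean square difference 0.29), Atp13a4 (0.30) and Fam13a (0.33).

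Glucose enters the alveolar cell through GLUT1, the product of Slc2a1, and is the substrate for lactose, which draws water into milk. Slc2a1 had 8.90, 7.07 and 9.13 in Rac1-/- glands, against 9.80, 10.31 and 6.97 in WT glands. The low mouse of each group was Nas497 or Nas484, and Nas484 was the lowest of all 6. The estimated log2 fold change was -0.66 (SE 0.96), and the 95% interval of -2.87 to 1.55 covers differences in either direction. The other probe sets of Slc2a1 gave -1.24 (SE 0.75) and -0.70 (SE 0.46). On the first of them the Rac1-/- values were 8.11, 5.70 and 6.74 and the WT values 8.75, 8.53 and 7.0, and Nas484 was again the lowest WT mouse. Single mice moved the estimate of the brightest probe set widely. It stood at -1.69 without Nas484, -1.04 without Nas518, -0.28 without Nas478, -0.02 without Nas483 and -0.01 without Nas497. Without both Nas484 and Nas497 it was -1.04, and both Rac1-/- mice left were below both WT mice. With array spread (the interquartile range) in the model it turned to 0.79 (SE 0.77), and with the actin difference to 1.13 (SE 1.11).

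Lactose is made in the Golgi by lactose synthase, which joins the galactosyltransferase B4galt1 with α-lactalbumin, the product of Lalba. Of 13 measured genes of sugar transport and lactose synthesis, 0 passed limma's test and 10 were below 0, and their median was -0.13 on the log2 scale. Lalba and B4galt1 were the 2 of them with an unadjusted p under 0.05. B4galt1 had 8.39, 7.69 and 7.61 in Rac1-/- glands, against 9.90, 10.67 and 8.95 in WT glands, a log2 fold change of -1.94 (SE 0.57). Lalba had 12.53, 11.68 and 11.33 in Rac1-/- glands, against 13.64, 13.56 and 14.56 in WT glands, a log2 fold change of -2.07 (SE 0.54). Both subunit genes were lower in every Rac1-/- mouse. Lalba stands on a list of lactation genes that the study drew from arrays without giving their stage, so its direction is not taken as independent evidence.

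**Figure D2:**
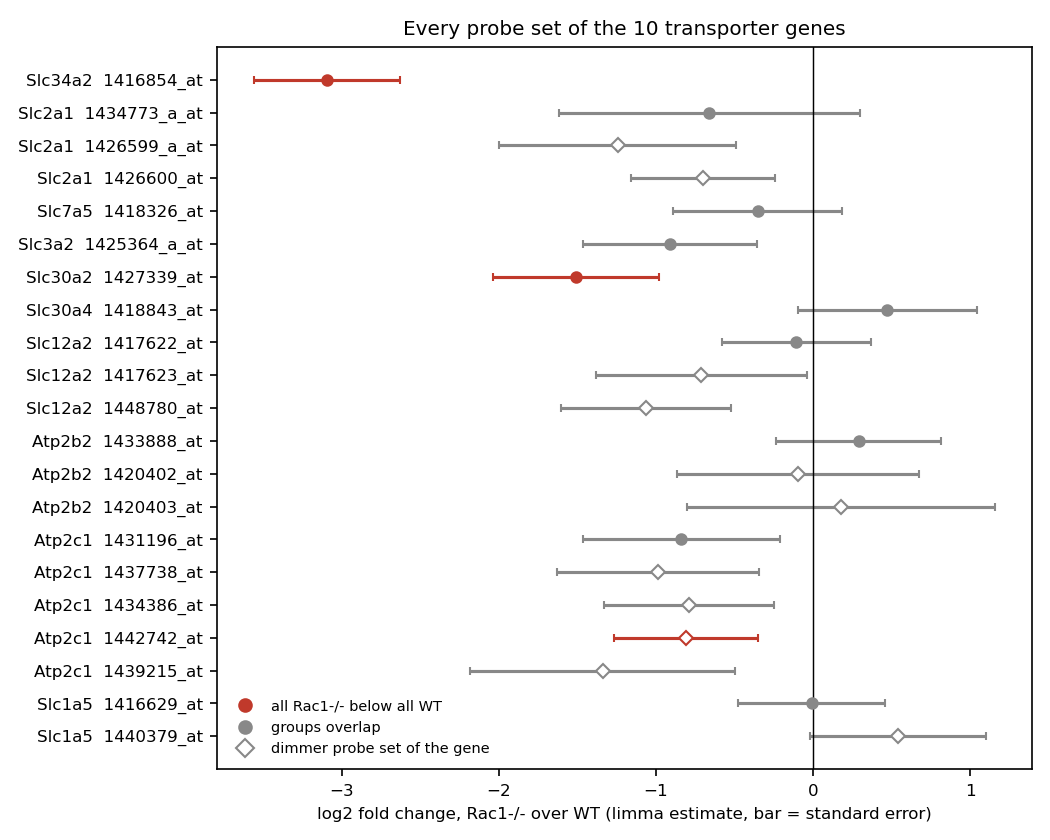
Difference in log2 intensity, Rac1-/- minus WT, for each of the 21 probe sets, 1 row per probe set, with n = 3 mice per group. Points are limma estimates and bars standard errors, filled circles are the probe set with the highest mean of a gene and open diamonds the dimmer ones, and red marks groups that do not overlap. Slc34a2 stands at -3.09, Slc30a2 at -1.51 and all 5 probe sets of Atp2c1 between -1.34 and -0.79.

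Amino acids for milk protein enter through exchangers. Slc7a5 encodes LAT1, the transport subunit for large neutral amino acids such as leucine, and Slc3a2 encodes CD98hc, the heavy chain that brings LAT1 to the membrane. Slc3a2 had 9.54, 9.84 and 8.81 in Rac1-/- glands, against 9.61, 10.31 and 11.00 in WT glands. Nas497 was the only Rac1-/- mouse above a WT mouse, and by a small margin. This was a log2 fold change of -0.91 (SE 0.55, 95% interval -2.18 to 0.36). The groups no longer overlapped with a common median, where it was -1.95, or on the deposited scaling, where it was -1.48 with linear intensities of 854, 443 and 386 in Rac1-/- glands and 1077, 1664 and 1760 in WT glands. Leaving out 1 mouse gave -1.26 without Nas478 to -0.56 without Nas484, and including the actin difference gave -1.57.

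Its partner Slc7a5 had 8.81, 8.01 and 7.74 in Rac1-/- glands, against 7.93, 9.16 and 8.53 in WT glands, and the groups overlapped. The mean difference was -0.35 (SE 0.54, 95% interval -1.60 to 0.89). It was -0.04 without Nas483 and -1.11 with a common median. Slc1a5 encodes ASCT2, a sodium-dependent exchanger of glutamine and other neutral amino acids. Its values were 7.03, 7.68 and 6.99 in Rac1-/- glands and 7.55, 7.22 and 6.94 in WT glands. Its estimate was -0.01 (SE 0.47) with a 95% interval of -1.08 to 1.07. A dimmer probe set of Slc1a5 gave 0.54 (SE 0.56), with all 3 Rac1-/- mice above all WT mice on the deposited scaling, where its log2 fold change was 0.97, and overlapping groups after quantile normalization.

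Of 15 other amino acid carriers, 0 passed limma's test, 9 were above and 6 below 0, and the median was 0.07. None had an unadjusted p under 0.05 (0 genes), and 1 lay wholly above and 1 wholly below WT. Slc7a8, the LAT2 subunit that also pairs with CD98hc, had 6.0, 4.85 and 4.38 in Rac1-/- glands, against 3.99, 3.72 and 3.99 in WT glands, a log2 fold change of 1.18 (SE 0.54) on a dim probe set. The glycine carrier Slc6a9 had 1.52 (SE 0.82) with overlapping groups. Slc1a4, the ASCT1 carrier of the same family as Slc1a5, was the one wholly below, at 8.13, 7.80 and 7.05 in Rac1-/- glands against 8.58, 8.78 and 8.16 in WT glands. Its log2 fold change was -0.84 (SE 0.50).

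Calcium is pumped into the Golgi by the secretory pathway pumps and across the apical membrane by PMCA2. Atp2c1 encodes SPCA1, the secretory pathway calcium and manganese pump present in most cells. It had 7.59, 6.43 and 8.51 in Rac1-/- glands, against 8.64, 8.57 and 7.84 in WT glands, and Nas518 overlapped with WT. The brightest probe set gave -0.84 (SE 0.62, 95% interval -2.28 to 0.60). The other 4 probe sets gave -0.99, -0.79, -0.81 and -1.34, so all 5 had estimates below 0. On 1 of these dimmer probe sets, every Rac1-/- mouse (5.65, 5.66 and 5.56) was below every WT mouse (6.61, 5.94 and 6.75). On the deposited scaling the groups overlapped on it, with a log2 fold change of -0.38 in place of -0.81. Probe sets of 1 gene on the same arrays share their mice and are not replicates. The estimate of the brightest probe set was -0.30 without Nas497 and -1.34 without Nas518. It turned to 0.42 (SE 0.60) once the actin difference was included.

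Atp2b2 encodes PMCA2, the apical plasma membrane pump that supplies much of the calcium of mouse milk. It had 6.38, 6.42 and 6.04 in Rac1-/- glands, against 5.52, 5.61 and 6.85 in WT glands. The Rac1-/- mice lay between the WT mice, of which Nas484 was the highest. That is a log2 fold change of 0.29 (SE 0.53, 95% interval -0.92 to 1.5), or 0.72 without Nas484, 0.056 without Nas478 and 0.098 without Nas483. Including the interquartile range gave -0.22 and including the actin difference -0.078. Its dimmer probe sets gave -0.09 (SE 0.77) and 0.18 (SE 0.98), so at this spread no direction can be given for Atp2b2.

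The other calcium genes held a pair linked to secretion. Of 14 measured genes, 0 passed limma's test, 8 were above and 6 below 0, and their median was 0.05, or -0.02 with a common median. Atp2c2, Orai1 and the calcium release channel Itpr2 lay wholly below WT, and Atp2b3, another plasma membrane pump, wholly above. The first 2 had an unadjusted p under 0.05. Atp2c2, which encodes SPCA2, the secretory pathway pump enriched in mammary epithelium, had 7.78, 7.48 and 7.13 in Rac1-/- glands, against 9.09, 9.53 and 8.73 in WT glands. Every Rac1-/- mouse was lower, with a log2 fold change of -1.65 (SE 0.47). Orai1, the plasma membrane calcium channel with which SPCA2 acts in mammary cells, had 7.59, 6.84 and 6.75 in Rac1-/- glands, against 8.30, 8.80 and 8.22 in WT glands, a log2 fold change of -1.38 (SE 0.48). Again the groups did not overlap. The estimate of Itpr2 was -1.03 (SE 0.45), and that of Atp2b3, on a dim probe set, was 1.17 (SE 0.52).

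Chloride is carried by NKCC1, the basolateral sodium, potassium and chloride cotransporter encoded by Slc12a2. Its values were 9.50, 9.47 and 9.19 in Rac1-/- glands and 9.89, 9.67 and 8.93 in WT glands. The Rac1-/- mice lay inside the range of WT, with a log2 fold change of -0.11 (SE 0.47, 95% interval -1.20 to 0.98). The other probe sets of Slc12a2 gave -0.71 (SE 0.67) and -1.06 (SE 0.54). On the second of these the Rac1-/- values were 8.78, 7.92 and 9.29 and the WT values 9.90, 10.06 and 9.22. On the deposited scaling every Rac1-/- mouse was below every WT mouse on it, with a log2 fold change of -1.47. Nas518 and Nas484 were close there, at linear intensities of 510 and 516. With a common median the groups overlapped on it. The 3 probe sets thus gave different sizes, with Nas484 the lowest WT mouse on each. With a common median the brightest gave -1.16, without Nas478 it was 0.088, and including the interquartile range gave 0.27.

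Of 18 other measured genes of chloride, sodium, potassium and water transport, 0 passed limma's test, 11 were above and 7 below 0, and the median log2 fold change was 0.05, or -0.12 with a common median. Scnn1a, the α subunit of the epithelial sodium channel and the only one with an unadjusted p under 0.05, had 5.18, 4.57 and 2.36 in Rac1-/- glands, against 5.99, 6.01 and 6.14 in WT glands, a log2 fold change of -2.01 (SE 0.74) on a dim probe set where Nas518 was far below the rest. The potassium channel Kcnk1 had -0.70 (SE 0.52) with overlapping groups. Atp1b3, a subunit of the sodium pump, lay wholly above WT with 0.44 (SE 0.43), or -0.49 with a common median.

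The 12 carriers of other milk micronutrients (iodide, vitamins, carnitine, iron, copper, choline and sulfate) all had estimates below 0 after quantile normalization, and 8 of the 12 with the deposited scaling alone. Their median was -0.79, or -0.44 with the deposited scaling, under which the median of all genes was 0.35 and 34.4% of all genes were below 0. None passed limma's test, and 0 had an unadjusted p under 0.05. The sulfate carrier Slc26a2 had -1.06 (SE 0.53) with overlapping groups. The choline carrier Slc44a1 had 8.07, 7.49 and 8.50 in Rac1-/- glands, all below the 8.89, 9.19 and 8.66 of WT glands, a log2 fold change of -0.89 (SE 0.48).

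**Figure D3:**
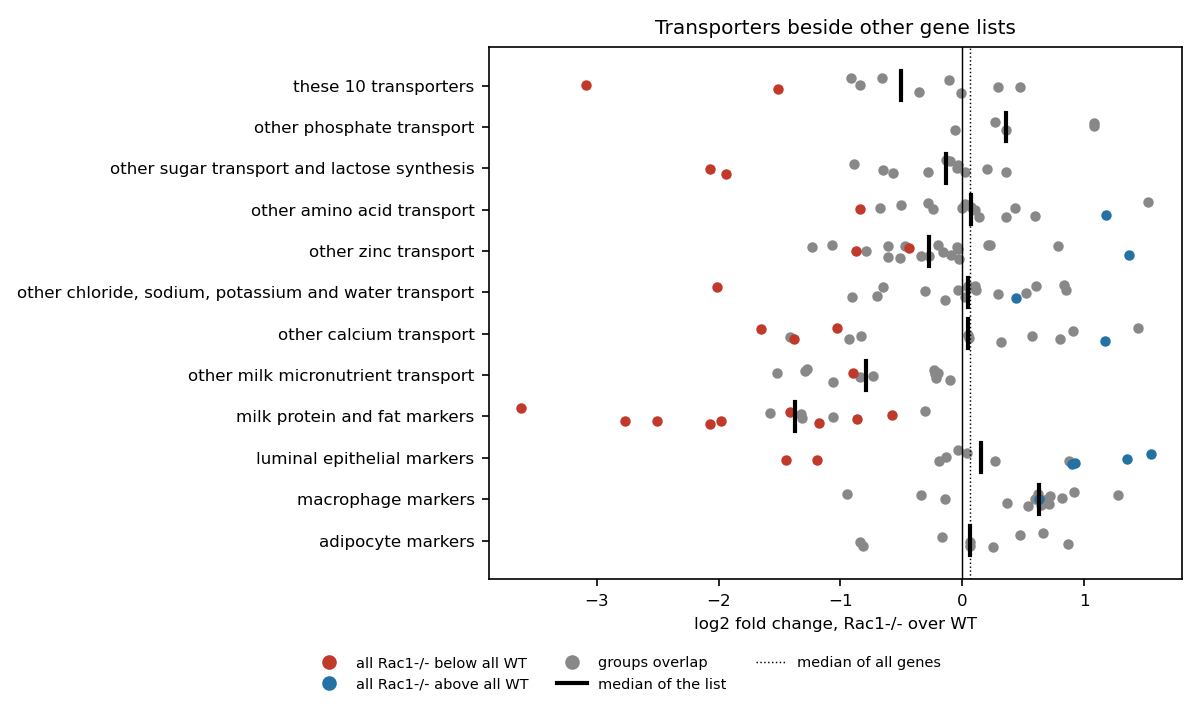
Difference in log2 intensity, Rac1-/- minus WT, for the 10 transporters beside 7 lists of related genes and 4 marker lists, 1 point per gene. Red points are genes whose Rac1-/- values all lie below WT, blue points those that all lie above, thick lines are list medians and the dotted line is the median of all genes. The transporters have a median of -0.51, the micronutrient carriers -0.79, the milk protein and fat markers -1.37 and the luminal markers 0.15.

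The levels of cell type markers in the same glands were as follows, and their part in the transporter values was not tested. The 14 milk protein and fat markers of secretory cells were all below 0 with a median of -1.37, and 9 of them lay wholly below WT. Their summed level was 16.66 to 17.47 in Rac1-/- glands and 18.19 to 18.29 in WT glands on the log2 scale. Most of them, and Elf5, stand on lists the study drew from arrays whose stage is not given there, so their direction is not taken as independent evidence. Of 12 luminal epithelial markers, 7 were above and 5 below 0 with a median of 0.15, which was -0.46 with a common median. They were split, with 4 wholly above WT (Cldn4, Krt7, Krt18 and Cldn3) and 2 wholly below (Elf5 and Esrp1). Of all genes, 5.41% lay wholly above and 4.21% wholly below. The summed level of the luminal markers was 13.09 to 13.20 in Rac1-/- glands and 13.12 to 13.45 in WT glands. The luminal keratin gene Krt18 had a log2 fold change of 0.90, or -0.23 with a common median, and Elf5, a transcription factor of alveolar cells, had -1.45. Of 15 macrophage markers, 12 were above and 3 below 0 with a median of 0.63, which was -0.12 with a common median, and C1qa lay wholly above WT. Their summed levels were 12.29 to 13.48 in Rac1-/- and 12.05 to 12.97 in WT glands. The summed levels of 10 skeletal muscle markers were 9.71 to 11.35 in Rac1-/- and 9.61 to 11.13 in WT glands, and those of 9 adipocyte markers 13.25 to 14.21 in Rac1-/- and 13.29 to 14.21 in WT glands. The summed myoepithelial markers had 11.54 to 12.23 in Rac1-/- and 11.06 to 11.46 in WT glands. Of 12 cell type lists other than the milk genes, the myoepithelial one alone did not overlap between the groups by this sum. The mean log2 level of the 10 myoepithelial markers overlapped, at 7.39 to 8.12 in Rac1-/- and 7.39 to 7.65 in WT glands, and their median difference was 0.18, or -0.42 with a common median. Acta2, the smooth muscle actin, was the one among them wholly above WT. The 11 involution and Stat3 markers, which are not a cell type list, also had summed levels without overlap. These were 14.80 to 15.33 in Rac1-/- and 15.96 to 16.23 in WT glands. Of the 11, 9 were below 0, with a median of -0.27, or -1.28 with a common median. Their mean log2 level overlapped, at 9.82 to 10.83 in Rac1-/- and 10.78 to 10.82 in WT glands. None of the measured markers was at the floor in any mouse.

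The estimates of the 10 genes differed in how far they depended on single mice and on the processing. Scaling to a common median in place of quantile normalization moved the median of all genes to -0.12, a shift of -0.18. The median of the 10 transporters was then -1.29, with 9 of 10 below 0, against 54.9% of all genes. Slc34a2, Slc3a2 and Slc30a2 then lay wholly below WT, against 6.65% of all genes. The median of the transporters shifted by -0.79 with this scaling. The medians of the fibroblast, macrophage and adipocyte markers shifted by -0.999, -0.75 and -0.66. Those of the neutrophil, T and NK cell, erythroid, and B and plasma cell markers moved up. A shift of this size was thus not particular to the transporters, and genes of like brightness were not compared. Without the arrays of Nas484 and Nas497, 7 of the 10 lay wholly below WT and Atp2b2 wholly above, with 2 mice in each group. With so few mice, 17.4% of all genes lay wholly below and 21.8% wholly above. The median of the 10 genes was -0.031 without the WT mouse Nas483, -0.25 without Nas497 and -0.77 without Nas496.

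**Figure D4:**
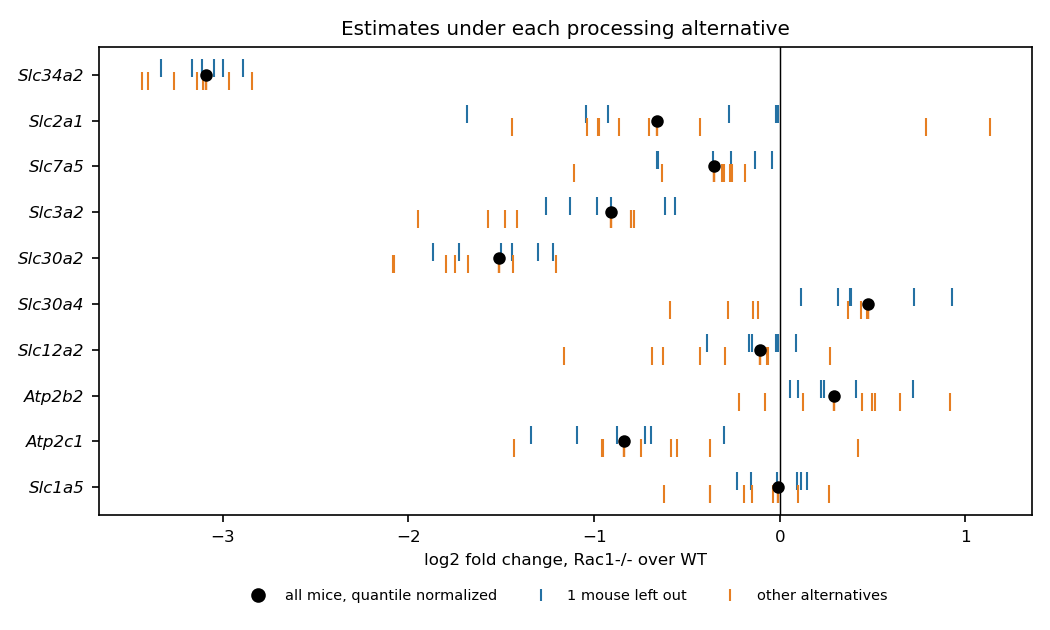
Log2 fold change of each transporter gene under every processing alternative, 1 row per gene. Black points are the estimates with all mice and quantile normalization, blue ticks leave out 1 mouse each and orange ticks are the other alternatives. Slc34a2 stays between -3.44 and -2.84 and Slc30a2 between -2.09 and -1.21, while Slc2a1 runs from -1.69 to 1.13.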

How the data were processed

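RNA from whole inguinal glands was amplified by the authors (Sensation kit of Affymetrix), with array quality checked in Expression Console, and they deposited linear intensity values, 1 per probe set. How probes were summarized and normalized is not given in the sources used here. From the values, every array was scaled so that its mean is 100 once the 2% highest and lowest are dropped. Arrays give no read depth, and their number limits the precision. No 2 arrays were identical (0 pairs), and the labels name separate mice and no batch.

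Quantile normalization was run in limma 3.58.1 (R 4.3.3), with a floor of 1 before the log2 was taken. Groups were compared with lmFit and eBayes over 45037 probe sets, without 64 control probe sets, with Benjamini-Hochberg adjustment and a threshold of 0.05. Platform annotation gave 1 symbol to 34958 probe sets (18193 genes), several to 932 and none to 9211. The fit was tested on simulated data with independent noise for each probe set and array. Those data lacked the differences in spread between the arrays, so the fit was not tested under them. All members are named, with the 2 genes of smallest p per further transport list and the 3 genes most alike in pattern to the 2 members with the smallest p. Further genes are named where a small count included them, chosen with their values known. Members and lists were chosen with earlier results of these data known. The alternatives changed the scaling, the floor, the probe sets, the variance model, covariates and the mice included.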

Additional observations from a re-analysis of the deposited data

How the results depend on the processing

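In limma, 0 probe sets passed the adjusted threshold under any of 19 alternatives, with the smallest adjusted p between 0.173 and 1.0. The median log2 fold change of the 10 transporter genes, -0.51, stayed below 0 throughout. It was -1.29 with a common median, -0.82 with the deposited scaling alone, -0.31 with cyclic loess and -0.75 with a gene's probe sets averaged. Over probe sets above the median mean it was -0.35 (without Slc30a2). Dropping probe sets with names that end in _a_at, _s_at or _x_at also gave -0.35 (without Slc3a2). Adding the interquartile range as a covariate gave -0.26 and the actin end difference -0.27, and leaving out 1 mouse gave -0.77 to -0.031. Slc34a2, Slc7a5, Slc3a2 and Slc30a2 kept their sign under every alternative that gave a value. Estimates turned sign for 6 genes. Adding the interquartile range, Slc2a1 was 0.79, Slc30a4 -0.15, Slc12a2 0.27, Atp2b2 -0.22 and Slc1a5 0.10. With the actin difference Slc2a1 was 1.13 (SE 1.11), Slc30a4 -0.28 (SE 0.70), Atp2b2 -0.078 (SE 0.71) and Atp2c1 0.42 (SE 0.60). Slc30a4 was -0.59 with a common median and -0.12 with the deposited scaling, and Slc1a5 was 0.27 with the mean of its probe sets. Leaving out 1 mouse ran from -0.39 to 0.088 for Slc12a2 (above 0 without Nas478) and from -0.23 to 0.15 for Slc1a5 (0.09 without Nas496, 0.11 without Nas518 and 0.15 without Nas478). The causes were not tested. No paired analysis was possible because the labels number no replicates, and numbers given in accession order only name different mice. With 3 mice per group, the 95% intervals of the 21 probe sets reached 1.06 to 2.25 on either side of the estimate.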
